A study of Mus musculus with 9 samples.

Results

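The transcriptome described here is that of the 4 KP libraries, the Smarca4 wild-type tumour cells among 9 libraries of cancer cells sorted from mouse lung tumours. They were chosen by the genotype label Smarca4+/+ alone, and no expression value entered the choice. The product of Smarca4 is BRG1, the motor subunit with which BAF complexes move nucleosomes. The KP mice carried Trp53 fl/fl, Smarca4+/+ and the reporter Rosa26LSL-TdTom on a mixed B6;129S2 background, and the other 5 libraries came from mice that differed from them in floxed Smarca4 alleles. Cre was delivered to the airway by an adenovirus in which the CCSP promoter, active in club cells, drives it. Lungs were taken when mice were moribund, tumours were digested with enzymes, and cancer cells were collected by FACS. The sources used here do not give the sort gate, so every library is what passed that gate at one late time. Ages, and whether each library came from a separate mouse, are likewise not stated there. The libraries are called KP 1 to KP 4, and the numbers are names only.

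Messenger RNA of many lung cell types is dominated by a few secreted products, and this is how those cells are usually recognised. Alveolar type 2 cells make surfactant, a film of lipid and protein that keeps alveoli open, and store it in lamellar bodies. Club cells line the small airways and secrete Scgb1a1, also called CCSP or CC10. Nkx2-1 is a homeodomain transcription factor of the lung that binds the promoters of surfactant genes.

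The deposited table gave 23224 gene symbols, of which 4963 had 0 counts in all 4 KP libraries. KP 1 held 15275259 estimated counts, KP 2 held 16725774, KP 3 held 17697482 and KP 4 held 29231565. Levels are CPM, a gene's share of the counts of its library, with TMM scaling, which corrects for the composition of a library and here moved a library by factors between 0.9781 and 1.039. A mean of at least 5 CPM was reached by 11064 of the 23224 genes, and 10117 reached 5 CPM in each of the 4 libraries. A mean of 100 CPM was reached by 2093. Counts of list members at these levels are to be read against those shares of all genes. CPM counts reads and grows with transcript length, so levels of different genes are compared only per kilobase of coding length. Over the 11064 genes, Pearson's r of log2(CPM + 1) between libraries ran from 0.907 for KP 2 and KP 3 to 0.955 for KP 1 with KP 2 and with KP 4. These are descriptions across genes of one tissue, which are not independent replicates.

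The markers that the cells were checked against were all high. Sftpc, the surfactant protein that marks alveolar type 2 cells, stood at 47558 CPM in KP 1, 70280 in KP 2, 42968 in KP 3 and 39261 in KP 4. It ranked first of all genes both by CPM and per kilobase, and it alone took between 3.84% and 6.98% of the counts of a library. Sftpb, which spreads the surfactant film, stood at 3280, 4509, 5527 and 4831 CPM in KP 1 to KP 4. Scgb1a1, the club cell secretoglobin, stood at 2841, 4360, 4062 and 3191 CPM. Per kilobase of coding length it ranked 5 (12547 CPM per kilobase) and Sftpb 11 (4022), in an order led by Sftpc (86385). Nkx2-1 was at 246, 245, 243 and 231 CPM, so the regulator was among the steadiest of the named genes while its surfactant targets differed between libraries. Its coefficient of variation (CV, the SD over the mean of the 4 libraries) was 0.0292, against 0.278 for Sftpc. Products of alveolar type 2 cells and of club cells were thus both abundant in each library, and bulk RNA cannot tell cells that make both from a mixture, nor fewer cells from less RNA per cell.

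Smarca4 itself was at 137, 124, 132 and 110 CPM in KP 1 to KP 4 (126 ± 12, SD, n = 4). Trp53, which encodes the tumour suppressor p53 and is floxed in all KP mice, was at 7.44, 8.67, 11 and 14 CPM. Trp53 was thus read in all libraries, near the threshold of 5 CPM in KP 1 and highest in KP 4. Reads from exons outside the floxed part would be included in that value. Of 25 BAF subunits read, 22 reached 5 CPM, and their summed level was 1466, 1443, 1417 and 1372 CPM, a CV of 0.0281. Pbrm1, a subunit of the PBAF form, was the most counted of them at 194 ± 11.1 CPM (SD, n = 4), and Smarca4 was next. Actl6b, a subunit of the neuronal form, had no counts in any KP library.

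The 30 genes with the most counts took 17.5% of all counts on average, between 16.1% in KP 4 and 20.4% in KP 2. The first 10 took 12.3% on average and the first 1000 took 54.1%. None of 15 mitochondrially encoded genes looked for was found among the 23224 symbols, so ranks and shares cover only the genes that were given. The first 20 are, from the top, Sftpc, Clu, Sftpa1, Rn45s, Actb, Malat1, Lyz2, Trf, Sftpb, Lars2, Scgb1a1, Actg1, Ftl1, Tmsb4x, Sftpd, Slc34a2, Gapdh, Ubb, Ctsh and Cd74. Eef1a1, Ldha, Ctsd, Krt8, Prdx1, Fth1, Cxcl15, S100a6 and Ager were also among the 30. Of the 30, 28 had a coding length, and 19 were also among the first 30 per kilobase. Rn45s, a ribosomal RNA, and Malat1 had no coding length. The largest moves between the orders were by short transcripts. Tmsb4x, a thymosin that binds actin monomers, ranked 14 by CPM and 2 per kilobase (22894 CPM per kilobase), and S100a11, a small calcium-binding protein, ranked 10 per kilobase without being among the first 30 by CPM. In the other direction Lars2, the mitochondrial leucyl-tRNA synthetase, ranked 10 by CPM (3835, 5130, 3748 and 3645 in KP 1 to KP 4) and ranked 62 per kilobase.

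**Figure D1:**
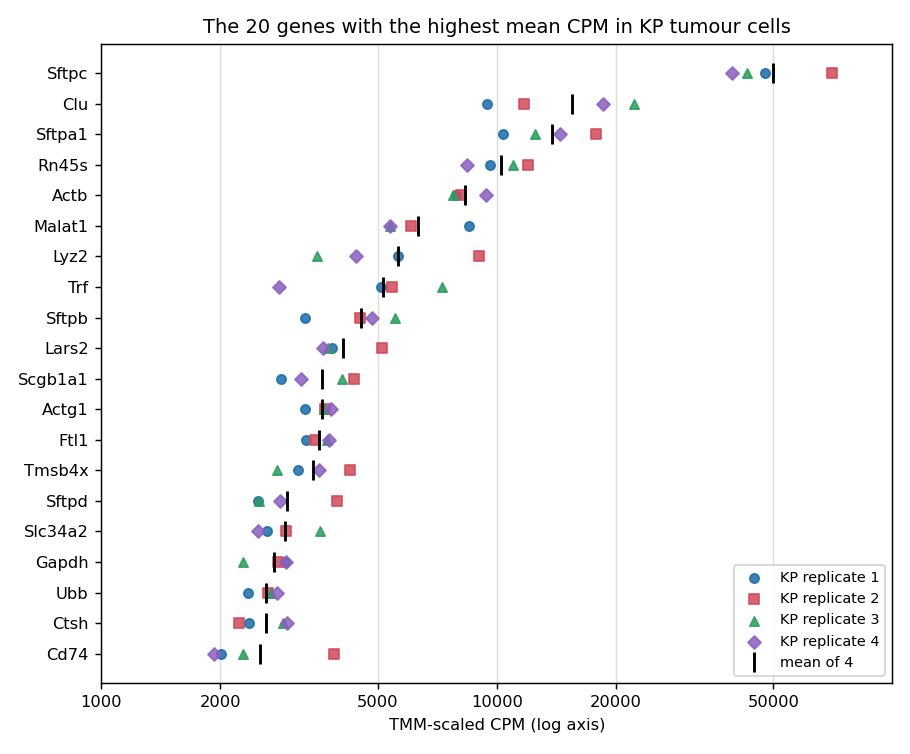
TMM-scaled CPM on a log axis for the 20 genes with the highest mean, one coloured symbol per KP library and a black bar for the mean of 4. Sftpc lies apart at the top, between 39261 and 70280 CPM, and KP 2 is the highest library for Sftpc, Sftpa1, Lyz2 and Cd74.

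Surfactant and its handling filled much of that list. Sftpa1, a collectin that binds microbes and surfactant lipid, stood at 10376, 17812, 12467 and 14458 CPM in KP 1 to KP 4. Sftpd, the related collectin, stood at 2498, 3954, 2503 and 2834 CPM. KP 2 was the highest library for both. Slc34a2, the apical phosphate transporter of alveolar type 2 cells, was at 2907 ± 482 CPM (SD, n = 4) and was highest in KP 3. Ctsh, a cathepsin that takes part in processing the surfactant proproteins, was at 2606 ± 364 CPM and was highest in KP 4. Lyz2, a lysozyme made in the mouse by alveolar type 2 cells and by macrophages, was at 5621, 8994, 3504 and 4418 CPM, and Cxcl15, a chemokine of mouse lung epithelium also called lungkine, at 1846, 2950, 1529 and 1403 CPM. Both were highest in KP 2.

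The stretch of 250 bases before the annotated start of Sftpb and Sftpa1 is shown because Nkx2-1, read at a nearly constant level, is known to act on surfactant promoters. The sequences are RefSeq's on GRCm38.p6, another build than that of the counts, matched by symbol and written 5′ to 3′ on the strand of the gene. Capitals mark CTCAAG, a core of the Nkx2-1 motif, searched on both strands without overlap with another motif. Sftpb lies at chr6:72304360-72304609 (+ strand) and Sftpa1 at chr14:41131538-41131787 (+ strand).
Sftpb: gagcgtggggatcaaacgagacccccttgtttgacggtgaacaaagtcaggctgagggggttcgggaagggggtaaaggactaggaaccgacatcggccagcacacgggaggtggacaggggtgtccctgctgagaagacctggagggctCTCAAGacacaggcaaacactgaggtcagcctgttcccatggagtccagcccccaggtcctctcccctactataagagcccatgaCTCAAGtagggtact
Sftpa1: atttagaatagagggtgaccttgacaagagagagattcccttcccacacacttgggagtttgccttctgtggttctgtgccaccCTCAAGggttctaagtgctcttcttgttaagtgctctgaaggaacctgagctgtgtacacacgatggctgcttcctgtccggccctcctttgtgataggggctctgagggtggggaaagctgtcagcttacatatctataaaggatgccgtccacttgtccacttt
Sftpb held the letters 2 times, 100 and 15 bases before the start, and Sftpa1 held them 1 time, 166 bases before it. Of 32851 such stretches in the table, 13.3% held CTCAAG at least 1 time and 0.998% held it 2 times or more. A match describes these letters only.

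Across 25 alveolar type 2 markers, 24 were at 5 CPM or more and 23 at 100 CPM or more. Their summed level was 83782, 124802, 81460 and 79303 CPM in KP 1 to KP 4, of which Sftpc gave 54.2%. KP 2 was the highest library for 17 of the 24, where it was the highest for 24.7% of all 11064 genes, and KP 4 was the lowest for 14 of the 24, against 19.2% of all genes. Without Sftpc the sum still stood at 54521 CPM in KP 2, against 36224 to 40042 in the other 3. Lower in the list, Muc1, a mucin of the apical surface, was at 934 ± 136 CPM, and Abca3, the transporter that loads lipid into lamellar bodies, stood at 724, 713, 664 and 435 CPM, lowest in KP 4. Lamp3, a membrane protein of lamellar bodies, stood at 328, 581, 354 and 240 CPM. Chi3l1, a chitinase-like secreted protein, varied most among these markers (CV 0.723), at 1579, 3642, 701 and 1212 CPM, and its mean of 1783 CPM became 1164 without KP 2. Dram1, a lysosomal membrane protein, varied least (CV 0.0794).

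Other compartments of the alveolus and airway were represented as well. Of 17 alveolar type 1 markers, 15 were at 5 CPM or more, with sums of 7209, 6449, 5464 and 8521 CPM in KP 1 to KP 4. Ager, the receptor RAGE that is enriched in alveolar type 1 cells, ranked 30 by CPM, at 2083, 2050, 1242 and 2175 CPM. Hopx, a homeodomain protein of type 1 cells and of some progenitors, stood at 212, 112, 133 and 358 CPM. KP 4 was the highest library for 11 of the 15 markers (between 8 and 11 under the other scalings) and for 26.9% of all genes. Most of the remaining sum lay with Gprc5a, a receptor of lung epithelium, Emp2, a membrane tetraspan protein, Cldn18, a tight junction claudin, and Aqp5, a water channel, which averaged 516 to 990 CPM.

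Among 20 club and secretory markers, 14 were at 5 CPM or more. The sums were 6061, 8918, 8900 and 8269 CPM in KP 1 to KP 4, of which Scgb1a1 gave 45%. Cyp2f2, a club cell cytochrome P450, stood at 453, 747, 743 and 859 CPM, and Cbr2, a lung carbonyl reductase, at 322, 826, 245 and 731 CPM. KP 1 was lowest for Cyp2f2, and for 6 of the 14 markers (22.1% of all genes), while KP 3 was lowest for Cbr2. Scgb3a2, a secretoglobin of airway cells, was at 23.9, 17, 11.7 and 27.7 CPM, and its relative Scgb3a1 at 47.8, 42.5, 135 and 52.6 CPM. So within one protein family Scgb1a1 stood at 12547 CPM per kilobase, against 223 for Scgb3a1 and 48.2 for Scgb3a2.

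Epithelial keratins and junction proteins were high, with 16 of 20 at 100 CPM or more. All 20 on the list were at 5 CPM or more, and the sums were 11970, 10667, 11681 and 14588 CPM in KP 1 to KP 4, with a median member CV of 0.165, close to the 0.176 of all genes and above the 0.13 of genes between 100 and 500 CPM. Krt8 and Krt18, which pair to form the filaments of simple epithelia, averaged 2109 ± 439 and 1876 ± 426 CPM (SD, n = 4). Krt7 and Krt19, other simple keratins, averaged 1609 ± 223 and 783 ± 141 CPM, and Epcam, an epithelial adhesion molecule, 769 ± 106. KP 4 was the highest library for 14 of the 20, against 26.9% of all genes. The highest library was also KP 4 for 14 of 16 genes (26.9% of all genes) of the transitional state that alveolar type 2 cells pass through on the way to type 1 cells in injured mouse lung. Krt8 leads that list too. Hbegf, a growth factor of the EGF family, stood at 168, 198, 283 and 304 CPM, and Cldn4, a claudin, at 102, 134, 167 and 209 CPM. Areg, another EGF family ligand, varied least in the list, at 329 ± 29.3 CPM (CV 0.0892).

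Markers of cells outside this epithelium were mostly low or rested on few genes. The macrophage list summed to 5946, 9247, 3771 and 4778 CPM, of which Lyz2 gave 94.9%. The other 19 macrophage genes summed to 325, 253, 267 and 360 CPM. They were led by Chi3l3, a chitinase-like protein, at 175, 81.5, 108 and 165 CPM, and Cd14, at 77.8, 114, 103 and 94.3 CPM. Of the 20 genes, 8 were at 5 CPM or more. Ptprc, the surface protein CD45 of all white blood cells, was at 3.21, 1.75, 1.15 and 3.25 CPM. Neither that sum nor Ptprc was highest in KP 2, where Lyz2 and Cd14 were. Which cells gave the Lyz2 reads was not tested. T and NK cell markers summed to 5.04, 2.65, 1.89 and 0.84 CPM, and Cd3e, a subunit of the T cell receptor complex, had no counts. B cell markers summed to 8.36 to 9.96 CPM, of which Cd79b gave 92.4%, and Ms4a1 and Pax5, which define B cells, had no counts. Fibroblast and smooth muscle markers summed to 230, 131, 64.7 and 98.2 CPM, of which Acta2, smooth muscle actin, gave 91.6%, and Col1a1, a collagen of fibroblasts, was at 0.693, 1.2, 1.49 and 1.26 CPM. Endothelial markers summed to 72.2 to 117 CPM, with Esam, an adhesion molecule, at 64.2% of that and Pecam1 at 1.01, 0.542, 3.27 and 3.99 CPM. Platelet and mesothelial lists rested on Pf4 (99.2%) and Msln (97.6%), and Wt1 and Calb2, which define mesothelium, had no counts.

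**Figure D2:**
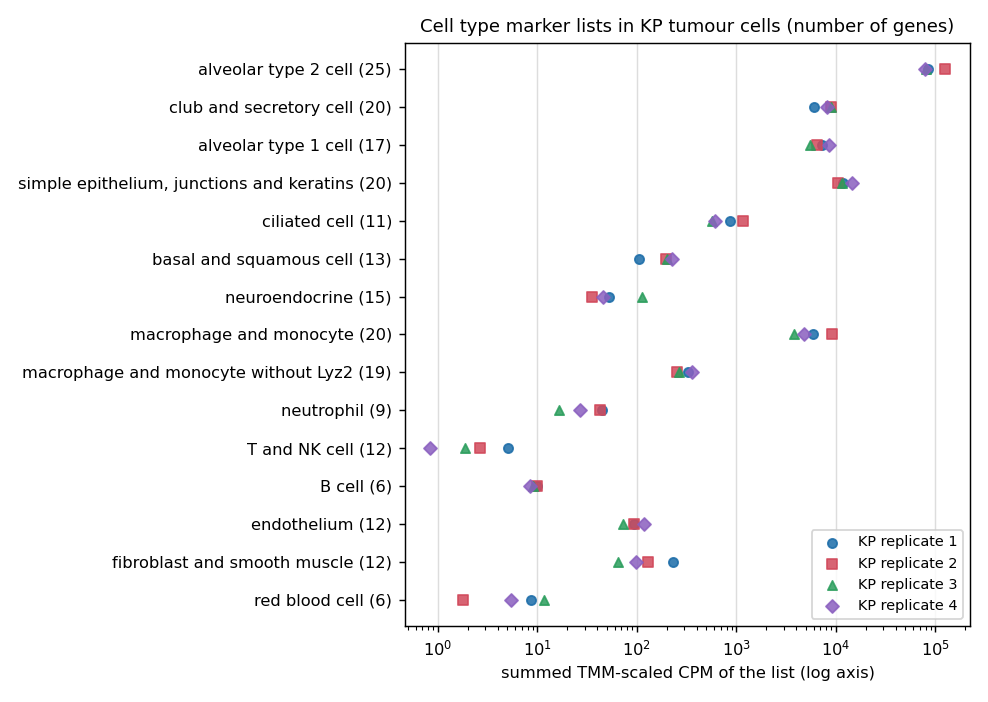
Summed TMM-scaled CPM of cell type marker lists on a log axis, one symbol per KP library, with the number of genes read in brackets. Alveolar type 2 markers sum to between 79303 and 124802 CPM, club markers to between 6061 and 8918, and T and NK cell markers to between 0.84 and 5.04.

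Basal, squamous and neuroendocrine markers were near the low end. Of 13 basal and squamous markers, 5 were at 5 CPM or more, and Krt5, the basal keratin, was at 0.189, 0.482, 0 and 0.56 CPM. Sprr1a, a cornified envelope protein, gave 64.9% of that sum. Trp63, the basal cell transcription factor, stood at 21 CPM in KP 3 and between 0.91 and 1.89 CPM elsewhere. Of 15 neuroendocrine markers, 2 were at 5 CPM or more, Ddc, an enzyme of monoamine synthesis that liver and kidney also make, and Scg5, a secretogranin. No count was read for Scg3, a granin, or for Neurod1, a helix-loop-helix factor of such cells. Mesenchymal genes were uneven. Sparc, a secreted matrix protein, averaged 647 ± 34 CPM (SD, n = 4), and Vim, the filament protein vimentin, 22 ± 6.02 CPM. Fn1, fibronectin, stood at 302, 285, 883 and 408 CPM, highest in KP 3.

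Ciliated cell markers varied widely between libraries. Of 11 genes read, 10 were at 5 CPM or more, and their median CV was 0.67, against 0.176 over all 11064 genes. Foxj1, which switches on the program of motile cilia, stood at 27.9, 37, 9.36 and 10.4 CPM in KP 1 to KP 4. Tppp3, a tubulin-binding protein, stood at 277, 379, 119 and 108 CPM. KP 2 was the highest library for 10 of the 10, against 24.7% of all genes. Hydin, among the 10, reached a mean of 5 CPM only through KP 2 (3.53 CPM without it). The lowest was KP 3 for 5 (28.7% of all genes) and KP 4 for 5 (19.2% of all genes). Without Tubb4b, a tubulin that other cells also make, the sums were 431, 604, 173 and 171 CPM.

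The transcription factors of the lung and endoderm were all present. Of 24 listed, 24 were at 5 CPM or more, and 10 were at 100 CPM or more. Foxa2, a forkhead factor of endoderm, averaged 107 ± 21.1 CPM (SD, n = 4), Cebpa, a factor of alveolar maturation, 89.8 ± 4.86, and Gata6, a zinc finger factor of endoderm, 86 ± 8.5. Cebpa and Gata6 each had a CV below 0.1, as did Nkx2-1. Etv5, an ETS factor that maintains alveolar type 2 cells, stood at 175, 264, 235 and 177 CPM. Id2, an inhibitor of helix-loop-helix factors, stood at 373, 370, 930 and 381 CPM, so KP 3 was higher than the others, which lay close together. Hnf4a, a nuclear receptor of liver and gut, stood at 93.5, 59.4, 138 and 88.6 CPM. Sox2, a factor of the proximal airway, stood at 11.6, 26.2, 24.9 and 15.7 CPM.

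Genes of stomach, gut and liver endoderm were read beside this lung program. Of 29 listed, 17 were at 5 CPM or more, as were 11064 of all 23224 genes, and Apoa2 had no counts. Trf, transferrin, stood at 5109, 5431, 7270 and 2811 CPM in KP 1 to KP 4 and gave 73.3% of the list. Gkn2, a gastrokine of the stomach, stood at 715, 570, 890 and 1074 CPM, and Ctse, cathepsin E, at 195, 244, 362 and 580 CPM. Both were highest in KP 4. Alb, albumin, stood at 62, 18.2, 610 and 125 CPM, and Tff3, a trefoil peptide of goblet cells, at 10.4, 4.34, 303 and 73.9 CPM. These were highest in KP 3, as were 12 of the 17, against 27.4% of all genes. KP 2 was lowest for 11, against 30.1% of all genes. Fga, among the 17, reached a mean of 5 CPM only through KP 3, at 2.52, 1.26, 24.6 and 3.25 CPM. Without KP 3 the mean of Alb was 68.4 CPM in place of 204, and that of Tff3 29.5 in place of 97.9.

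Alveolar type 2 cells are known to carry MHC class II, and genes of antigen presentation were read at high levels. Cd74, the invariant chain, stood at 2011, 3882, 2286 and 1928 CPM in KP 1 to KP 4, and H2-Ab1, a class II chain, at 445, 899, 512 and 338 CPM. The list summed to 3216, 6180, 3710 and 3026 CPM, and KP 2 was highest for 6 of its 8 genes at 5 CPM or more, against 24.7% of all genes. Of the class I genes, H2-D1, a heavy chain, averaged 1013 ± 126 CPM (SD, n = 4), and B2m, the light chain, stood at 181, 328, 424 and 211 CPM. Single H2 genes are uncertain, since near-identical family members share reads. Secreted defence genes held Wfdc2, an antiprotease-like protein, at 1759 ± 403 CPM and Lcn2, a lipocalin that binds siderophores, at 638, 1355, 557 and 578 CPM. KP 2 stood apart for Lcn2. Of 23 interferon response genes, 14 were at 5 CPM or more, against 11064 of all 23224 genes. At 100 CPM or more there was 1, against 2093 of all genes. KP 2 was highest for 11 of the 14, against the same 24.7%. Oas1a, among the 14, reached a mean of 5 CPM only through KP 2, at 4.66, 13.1, 3.73 and 4.76 CPM.

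Several housekeeping lists had low CVs. The 78 ribosomal protein genes summed to 21360, 23088, 23457 and 23088 CPM in KP 1 to KP 4, and 52 of them had a CV below 0.1, against 18.9% of all genes. Rps27 had the highest CV of the list, at 21.2, 96.7, 112 and 5.11 CPM, a value that near-identical copies make uncertain. The 15 translation factors had a median CV of 0.0746, the 31 nuclear genes of oxidative phosphorylation 0.102 and the 22 cytoskeleton genes 0.118. The 15 glycolysis genes had 0.155, and all genes between 100 and 500 CPM had 0.13. Actb averaged 8285 ± 735 CPM and Ezr, which links actin to the membrane, 1098 ± 42.2. 2 glycolysis enzymes were among the 30 most counted genes, Gapdh (2920, 2796, 2285 and 2931 CPM) and Ldha, lactate dehydrogenase (2661, 2297, 1824 and 2405 CPM). KP 3 was lowest for both and for 9 of the 15 glycolysis genes, against 28.7% of all genes. Of the common reference genes, Sdha, a subunit of succinate dehydrogenase, was the steadiest (337 ± 10.6 CPM, CV 0.0315), Actb had a CV of 0.0887, Gapdh 0.112, and B2m the highest at 0.391.

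Lysosomal, secretory and stress genes were high. Ctsd, cathepsin D, averaged 2135 ± 290 CPM (SD, n = 4) and Npc2, a lysosomal sterol carrier, 1548 ± 266. Ctsc, a cathepsin, and Lamp1, a lysosomal membrane protein, were the steadiest lysosomal genes, with CVs of 0.03 and 0.0307. P4hb, a disulphide isomerase of the endoplasmic reticulum, stood at 1113, 1051, 1438 and 1151 CPM, and Hspa5, the chaperone BiP, at 842, 970, 1315 and 983 CPM. KP 3 was highest for 13 of the 20 genes of that list, against 27.4% of all genes. The immediate early genes that enzymatic dissociation is known to induce summed to 7381, 8763, 10885 and 9429 CPM, with Fos at 1297, 1559, 2221 and 1714 CPM and Egr1 at 1131, 1164, 1402 and 1233 CPM. Both encode transcription factors, and KP 3 was highest for 12 of 19 (27.4% of all genes) and KP 1 lowest for 14 (22.1% of all genes). Their part in the differences between libraries was not tested.

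Proliferation genes were low and uneven. None of 32 reached a mean of 100 CPM, and 29 reached 5 CPM, with a median CV of 0.44. Mki67, the antigen Ki-67 of cycling cells, stood at 20.9, 40.1, 18.4 and 8.33 CPM in KP 1 to KP 4, and Ccnb1, the mitotic cyclin B1, at 12.9, 37.6, 11 and 7.31 CPM. KP 2 was highest for 18 of the 29 (24.7% of all genes) and KP 1 for 10 (21.1% of all genes), and KP 4 was lowest for 19 (19.2% of all genes). KP 2, the highest library for the sums of alveolar type 2 and ciliated markers, was thus also the highest for this one. Outputs of RAS-MAPK signalling were led by Dusp6, a phosphatase of ERK, at 420, 308, 621 and 602 CPM. Spry1, a feedback inhibitor, was even at 113 ± 6.52 CPM. Among p53 targets Cdkn1a, the inhibitor p21, averaged 180 ± 32.6 CPM and Mdm2, the ligase of p53, 66 ± 11.6 CPM. NRF2 targets were led by Gstm1, a glutathione transferase, at 813, 871, 1064 and 1615 CPM, and KP 4 was highest for 12 of 19 (26.9% of all genes) and KP 1 lowest for 13 (22.1% of all genes).

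Over the 11064 genes the median CV was 0.176, with quartiles of 0.115 and 0.273. The CV that counting alone would give (the Poisson value at the gene's mean count) was 0.104 at 5 CPM and 0.00734 at 1000 CPM. The median CV was 0.347 between 5 and 10 CPM, 0.141 between 50 and 100 CPM and 0.15 at 1000 CPM and above. The median was thus lower at higher levels up to 50 CPM and stayed between 0.13 and 0.15 above it. A CV of 1 or more was found in 90 genes (0.813%) and a CV below 0.1 in 2086 (18.9%). In 147 genes (1.33%) the CV was below its counting value.

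**Figure D3:**
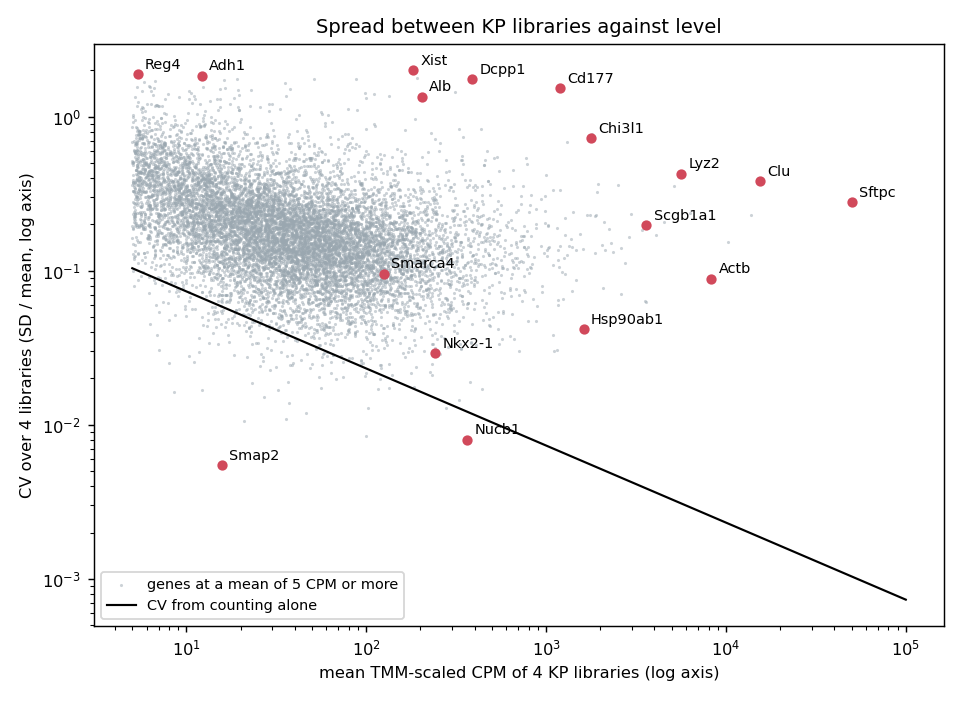
CV over the 4 KP libraries against mean TMM-scaled CPM, both on log axes, for the 11064 genes at 5 CPM or more. The black line is the CV from counting alone, red points are named genes, and Xist, Dcpp1 and Cd177 lie far above the cloud while Smap2 and Nucb1 lie below the line.

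The most variable genes were mostly high in 1 library. KP 3 was the highest library for 17 of the 20 with the highest CV and for 127 of the first 200, against 27.4% of all genes. Without KP 3 the means of Reg4, Ffar2, Ccr7 and Trp63, for example, were 0.303, 1.02, 1.31 and 1.4 CPM. The threshold of 5 CPM thus admitted such genes only through KP 3, which partly fixed the counts given here for KP 3. In 54 genes KP 3 exceeded the next library by 4-fold or more, against 2 genes for KP 1, 1 for KP 2 and 2 for KP 4. Of the 90 genes with a CV of 1 or more, 76 were highest in KP 3, and without KP 3 only 26 genes had such a CV. Xist, the RNA that silences an X chromosome in female cells, had the highest CV (1.99, where 2 is the most that 4 libraries allow), at 726 CPM in KP 2 and at 0.756, 0 and 0.735 CPM in KP 1, KP 3 and KP 4. The Y-linked genes were the mirror image, with Ddx3y, a helicase, at 0 CPM in KP 2 and at 58.5, 55.7 and 66.1 CPM in KP 1, KP 3 and KP 4. Mice of both sexes thus stand behind the KP libraries, with KP 2 apart, and any value for which KP 2 stands apart cannot be told apart from sex.

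A cluster of 3 related genes was among those that KP 3 led. Dcpp1, Dcpp2 and Dcpp3 encode demilune cell and parotid proteins, secreted proteins of mouse salivary glands. Dcpp1 stood at 40.4, 29.9, 1411 and 76.9 CPM in KP 1 to KP 4, Dcpp2 at 15.1, 12.6, 698 and 38, and Dcpp3 at 4.6, 3.91, 186 and 10. The order of the libraries was the same for each. Near-identical copies share reads, so the split among them is uncertain and they are not independent of each other. Their upstream sequences are shown because the 3 genes moved together. The sequences are the 250 bases before each start (RefSeq, GRCm38.p6, + strand, 5′ to 3′). Capitals mark the aligned bases of Dcpp2 and Dcpp3 that differ from Dcpp1. Bases of Dcpp1 that are missing from Dcpp2 or Dcpp3 are not marked and are left out of the shared counts below. They lie at chr17:23880626-23880875 for Dcpp1, chr17:23898472-23898721 for Dcpp2 and chr17:23917208-23917457 for Dcpp3.
Dcpp1: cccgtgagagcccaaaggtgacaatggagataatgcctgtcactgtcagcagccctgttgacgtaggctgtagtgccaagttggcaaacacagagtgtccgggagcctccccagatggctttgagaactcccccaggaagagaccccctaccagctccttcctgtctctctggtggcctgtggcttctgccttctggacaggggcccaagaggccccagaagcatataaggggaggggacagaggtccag
Dcpp2: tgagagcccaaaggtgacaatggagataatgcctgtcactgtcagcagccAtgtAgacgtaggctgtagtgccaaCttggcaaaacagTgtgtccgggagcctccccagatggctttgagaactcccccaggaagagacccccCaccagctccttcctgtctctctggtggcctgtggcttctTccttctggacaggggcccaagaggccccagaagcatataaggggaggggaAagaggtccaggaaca
Dcpp3: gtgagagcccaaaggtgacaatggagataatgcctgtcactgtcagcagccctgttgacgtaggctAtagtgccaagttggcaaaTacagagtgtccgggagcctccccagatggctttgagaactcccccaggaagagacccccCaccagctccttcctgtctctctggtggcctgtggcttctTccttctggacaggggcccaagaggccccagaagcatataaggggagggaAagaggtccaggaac
Dcpp1 and Dcpp2 shared 238 of 245 aligned bases (97.1%), Dcpp1 and Dcpp3 shared 241 of 246 (98%), and Dcpp2 and Dcpp3 shared 243 of 248 (98%). Besides Dcpp2, 3 other annotated genes lie between Dcpp1 and Dcpp3.

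The other genes that KP 3 led belong to several families. Cd177, a surface glycoprotein best known from neutrophils, stood at 126, 330, 3936 and 406 CPM in KP 1 to KP 4. The neutrophil list, which does not hold it, summed to 44.4, 42.9, 16.4 and 27 CPM. Of its 9 genes read, 1 was at 5 CPM or more, Cxcr2, which gave 71.3% of the sum. Which cells gave the Cd177 reads was not tested. Fmod, fibromodulin of the extracellular matrix, stood at 0.252, 4.94, 318 and 26.4 CPM. Fn1 was also highest in KP 3, at 883 CPM against 285 to 408 in the others. The summed mesenchymal list (1198, 1116, 1688 and 1179 CPM) holds Fn1, and its lead in KP 3 rested on that gene. Of its 18 genes, 5 were at 5 CPM or more. Atoh1, a transcription factor of secretory and sensory cells, stood at 1.2, 0.542, 69.9 and 5.18 CPM, and Reg4, a lectin of gut secretory cells, at 0, 0, 20.5 and 0.91 CPM. Ces1c, a secreted carboxylesterase of mouse plasma, stood at 2.65, 1.14, 58.5 and 2.73 CPM, and Trim31, a ubiquitin ligase of gut epithelium, at 1.32, 0.422, 122 and 17.7 CPM. Htra1, a secreted serine protease, stood at 9.83, 5.12, 123 and 12.1 CPM. KP 4 was second for Fmod, Atoh1, Reg4, Trim31 and Htra1.

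At lower levels KP 3 led Megf11 (54.4 CPM against 2.17 to 6.68 in the others), a receptor with EGF repeats, and Epb4.2 (41.2 against 1.2 to 5.84), the band 4.2 protein of red cell membranes. It led Ffar2 (23.7 against 0.0602 to 1.89), a receptor for short-chain fatty acids, and Ccr7 (20.8 against 1.13 to 1.54), a chemokine receptor. It also led Fam123a (17.6 against 0.063 to 2.62), a gene of the AMER family, besides Trp63. Other libraries led the rest. Adh1, an alcohol dehydrogenase, stood at 45.8 CPM in KP 1 and at 0.422, 0.517 and 1.96 in KP 2 to KP 4. Upk1b, a uroplakin, stood at 20.5 CPM in KP 4 and at 0, 0.964 and 1.78 in KP 1 to KP 3. One of the 20 most variable names is a predicted gene model and is not described.

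**Figure D4:**
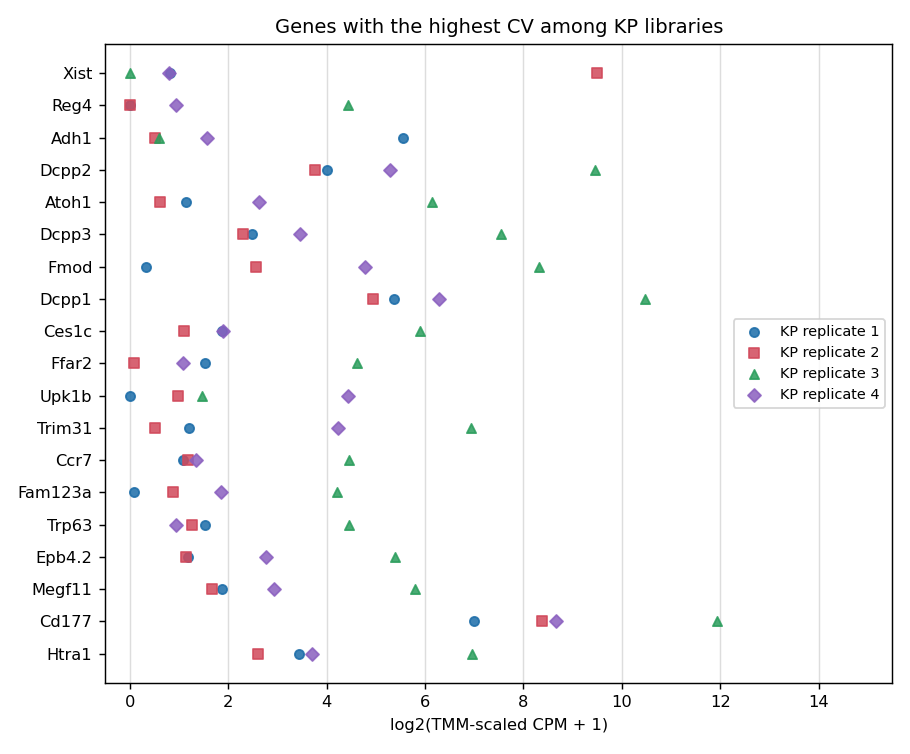
log2(TMM-scaled CPM + 1) of the described genes among the 20 with the highest CV, ordered by CV, one symbol per KP library. KP 3 is the rightmost library in all but Xist (KP 2), Adh1 (KP 1) and Upk1b (KP 4).

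Among genes at 100 CPM or more, a level chosen after the values were seen, 8 had a CV of 1 or more. They were Xist, Dcpp1, Dcpp2, Cd177, Guca2a, Cfi, Vcan and Alb. Guca2a, guanylin, a peptide of goblet and other gut cells, stood at 40.6, 16.7, 978 and 216 CPM in KP 1 to KP 4. Cfi, complement factor I, stood at 52.9, 33.5, 342 and 15.6 CPM, and Vcan, the proteoglycan versican, at 63.3, 24.7, 406 and 41.3 CPM. KP 3 was highest in 7 of the 8. Dcpp1, Dcpp2 and Alb, for example, reached 100 CPM only through KP 3 (49.1, 21.9 and 68.4 CPM without it), so that count is partly fixed by the level. Igfbp3, which binds insulin-like growth factors, followed with a CV of 0.965 and was highest in KP 4, at 452 CPM against 55.3 to 146.

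The lowest CV belonged to Smap2, a GTPase-activating protein of membrane traffic, at 15.8, 15.8, 15.8 and 15.6 CPM (CV 0.00547, counting value 0.0585). Nucb1, a calcium-binding protein of the Golgi, stood at 359, 364, 365 and 366 CPM (CV 0.008, counting value 0.0122). Both lay under their counting value, as did 17 of the 20 genes with the lowest CV. The 20 included genes of RNA handling, among them Snrpb and Snrpe, core proteins of spliceosomal particles, Lsm2, a partner of small nuclear RNA, Sfswap, a splicing regulator, Imp4, a ribosomal RNA processing protein, and Fxr2, a relative of the fragile X protein. The ribosomal protein Rpl10a (184 ± 3.24 CPM, SD, n = 4) and Zfp598, which senses collided ribosomes, were among them. Others were Mpv17, a mitochondrial membrane protein, Fars2, a mitochondrial tRNA synthetase, Tmbim6, a survival protein of the endoplasmic reticulum, Mgat2, an enzyme of N-glycans, Dr1, a repressor of transcription, Spop, an adaptor of a ubiquitin ligase, Zfp395, a zinc finger protein, Parp11, an ADP-ribosyltransferase, and Tnfsf10, the death ligand TRAIL (8.53 ± 0.14 CPM). Their rank depended on the scaling. Under plain library totals 3 of these 20 were still among the 20 steadiest, yet none had a CV above 0.0438 under any scaling tried.

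**Figure D5:**
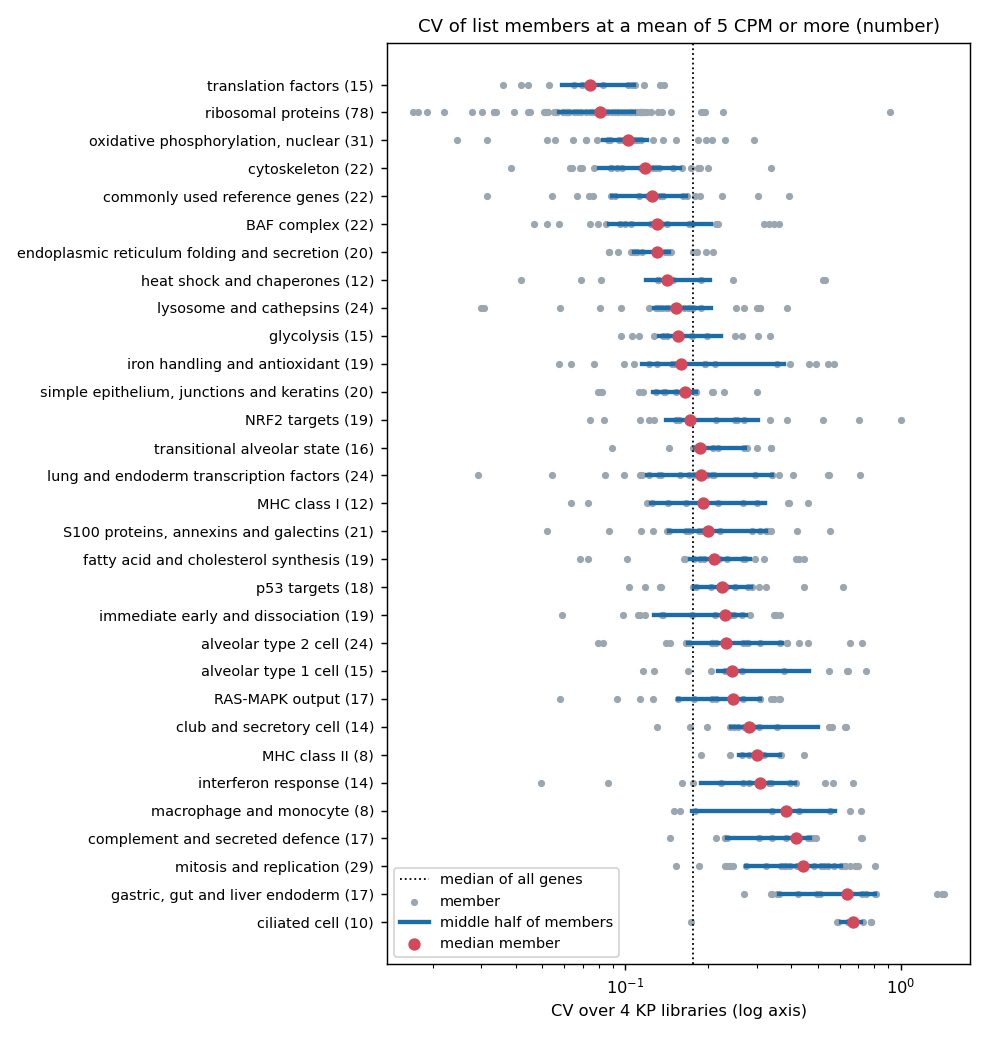
CV over the 4 KP libraries, on a log axis, of list members at 5 CPM or more, for lists with 8 or more such members (number in brackets), ordered by their median. Grey points are genes, blue bars the interquartile range, red points the median and the dotted line the median of all genes (0.176). Translation factors (0.0746) and ribosomal proteins (0.0805) lie at the steady end and ciliated cell markers (0.67) at the other end of the lists drawn.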

How the data were processed

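Bulk RNA sequencing of FACS-sorted cancer cells was analysed for the 4 libraries whose genotype label is Smarca4+/+ (KP), out of 9. Per the labels' protocols, polyA RNA was amplified with Clontech SMARTseq chemistry for low input. The authors deposited one table of estimated counts by gene symbol, without scaling. Per the submitters' processing notes RSEM 1.3.1, Bowtie 1.2.3 and the build mm9 were used. The sources used here name no annotation, strand setting or filter, so overlapping or antisense genes and near-identical copies are uncertain.

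Counts were rounded (a change of at most 0.5). TMM factors came from edgeR 4.0.16 in R 4.3.3 over all 9 libraries after filterByExpr (minimum count 10, minimum total 15), which kept 15663 genes. CPM of all 23224 genes used those factors. CV is the SD over the mean of 4 libraries, given at a mean of 5 CPM or more. Coding length is the longest coding sequence per symbol in GENCODE M21 (GRCm38), found for 20250 genes. With 1 group, nothing was tested between conditions and no p-value is given. Counting values cover counting error only, since reads carry no molecular identifiers. The ranking was checked on simulated counts. The labels do not name separate mice, so spreads are those between these samples and may be technical.

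Named are the targeted genes, the 4 markers, the 30 most abundant genes, the 20 most and 20 least variable, and of each list up to 6 most abundant members and the most variable one. Some of these genes, and a further conditional allele that all mice carried, are not reported here. A few others are named for a level of 0 or as defining markers, chosen after their values were seen, as were the genes at 100 CPM or more. Members and lists were chosen with earlier results of these data known. Alternatives were library totals, TMM from the KP libraries or from all genes, DESeq2 1.42.0 size factors, other level thresholds, other spread measures and leaving out each library.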

Additional observations from a re-analysis of the deposited data

Results flagged for a closer look

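Dixon's ratio, the gap between the highest or lowest library and its neighbour over the whole range, was computed for 263 named genes at 5 CPM or more and for 45 list sums. It was above its 95% critical value for 4 samples in 36 genes and 4 lists. Chance alone passes about 1 in 20 such groups, and the 20 most variable genes, chosen for spread, were all among the 36. Outside those 20, the share of genes flagged was not far above that rate. KP 3 stood apart as the high library in 22 genes, KP 2 in 6, KP 4 in 3 and KP 1 in 1. KP 2 was the low library in 3 and KP 3 in 1.

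Among the most variable genes KP 3 was high for Dcpp1 (ratio 0.966), Dcpp2 (0.963), Dcpp3 (0.967), Cd177 (0.927), Fmod (0.918), Atoh1 (0.933), Reg4 (0.956), Ces1c (0.972), Ffar2 (0.923), Trim31 (0.858), Ccr7 (0.979), Fam123a (0.854), Epb4.2 (0.884), Trp63 (0.951), Megf11 (0.914), Htra1 (0.941) and the gene model Gm684 (0.897). Among steadier genes KP 3 was high for Id2 (0.98), Calr (0.966), a chaperone of the endoplasmic reticulum, Scgb3a1 (0.891), Jun (0.841) and Zfp598 (0.851). Zfp598 stood at 22.9, 23, 23.8 and 23 CPM, and its CV of 0.0186 was below its counting value of 0.0482. Ager was low in KP 3 (0.866). Id2, at 930 CPM in KP 3 against 370 to 381 CPM in the others, is the abundant regulator among them.

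KP 2 was high for Xist (0.999), Lars2 (0.872), Lcn2 (0.898), Lgals3bp (0.869), a secreted galectin ligand, Oas1a (0.891), an antiviral enzyme, and Cd79b (0.843). It was low for Ddx3y (0.843), Uty (0.933) and Ss18 (0.886), a BAF subunit. KP 4 was high for Rps19 (0.865), Hmga2 (0.851), a chromatin protein of fetal tissue, and Upk1b (0.913), and KP 1 for Adh1 (0.966).

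Of the list sums, those for alveolar type 2 markers (0.902) and interferon response (0.889) stood apart in KP 2. The sum for mesenchymal genes (0.857) stood apart in KP 3 and that for sex-linked genes (0.933) in KP 2. The lead of KP 3 in the mesenchymal sum rested on Fn1.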

How the results depend on the processing

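Other scalings (library totals, TMM from KP alone, TMM from all genes, DESeq2 size factors) moved a library by at most 0.0549 on the log2 scale and left the 30 most abundant and 20 most variable genes the same. Of the 20 steadiest genes, 3 were kept with library totals, 12 with TMM from KP alone and 9 with DESeq2. With edgeR's tagwise BCV 4 of the steadiest and 10 of the most variable were kept, and with the SD of log2(CPM + 1) 11 of the most variable. Per kilobase, 19 of the 30 most abundant were kept. At a mean of 10 CPM or more 57 genes had a CV of 1 or more and 13 of the 20 most variable were kept, and at 1 CPM these were 296 and 3. At 100 CPM, a level chosen after the values were seen, 8 genes had a CV of 1 or more and 658 a CV below 0.1, and 4 of the most and 8 of the least variable were kept. These drops follow from the genes that each level admits.

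Leaving out 1 library at a time kept 5 to 14 of the 20 most variable (5 without KP 3, 13 without KP 1) and 1 to 4 of the steadiest. It left 26 to 122 genes with a CV of 1 or more, the lowest without KP 3, and 2528 to 2978 with a CV below 0.1. Genes at 5 CPM numbered 10989 to 11092, the first 10 genes took 11.5% to 12.8%, alveolar type 2 markers 8.16% to 9.7% and club markers 0.771% to 0.857% of counts. Without KP 3 the mean of Cd177 was 288 CPM in place of 1200, that of Dcpp1 49.1 in place of 390 and that of Pf4 196 in place of 329. Without KP 2 the mean of Xist was 0.497 CPM in place of 182 and that of Ccnb1 10.4 in place of 17.2, and without KP 1 that of Rtkn2 19.6 in place of 30.8 and that of Adh1 0.966 in place of 12.2. No paired analysis was possible because there is 1 group and its numbers are only names. At 5 CPM counting alone gives a CV of 0.104, which limits what the order of low genes shows.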

Other observations

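The lists in this part were chosen after the values were seen and are given as descriptions. Which library led a list was thus partly fixed by that choice, and the counts below are no support for a pattern. Of 17 circadian clock genes at 5 CPM or more, KP 1 was the highest library for 8 (21.1% of all genes) and the lowest for 7 (22.1% of all genes). Arntl, the clock activator BMAL1, stood at 31.2, 7.05, 11.4 and 11.1 CPM in KP 1 to KP 4, and Npas2, its alternative partner, at 12.9, 6.93, 2.76 and 2.1 CPM. Dbp, a clock output factor that Arntl switches on, stood at 6.81, 28.5, 29.3 and 33.7 CPM, and Per3, a clock repressor, at 7.56, 26.4, 18.5 and 27.4 CPM. KP 1 was thus the highest library for Arntl and Npas2 and the lowest for Dbp and Per3. Of the other repressors, Per2 stood at 55.4, 51.4, 36.2 and 43.9 CPM and Cry1 at 32.6, 17.8, 25.4 and 20.5 CPM, both highest in KP 1. Clock itself was at 45.9 ± 7.58 CPM (SD, n = 4). The labels used here give no time of day.

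Imprinted and fetal growth genes were uneven as well. Dlk1, a NOTCH-like ligand expressed from the paternal allele, stood at 188, 299, 977 and 277 CPM in KP 1 to KP 4, and Meg3, a noncoding RNA of the same region expressed from the maternal allele, at 537, 756, 288 and 243 CPM. Nnat, neuronatin, stood at 33.3, 19.1, 296 and 50 CPM, and Gpc3, a glypican of fetal liver, at 81.8, 144, 357 and 71 CPM. KP 3 was highest for Dlk1, Nnat and Gpc3. Cdkn1c, the inhibitor p57, was even at 47.8 ± 3.8 CPM, and H19 had no counts.

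Plasma proteins of liver summed to 565, 289, 2339 and 675 CPM. KP 3 was highest for 15 of 16 at 5 CPM or more, against 27.4% of all genes, Gc, the vitamin D-binding protein, being the exception. Members such as Fga (2.52, 1.26, 24.6 and 3.25 CPM) and Apoh (1.76, 0, 19.6 and 4.58 CPM) reached a mean of 5 CPM only through KP 3. Rbp4, which carries retinol, stood at 244, 141, 718 and 281 CPM and Itih2, an inhibitor heavy chain, at 69.8, 37.1, 259 and 78.6 CPM. Goblet and gut secretory genes summed to 232, 204, 1816 and 473 CPM and KP 3 was highest for 9 of 10, against the same 27.4%. Reg4 reached a mean of 5 CPM only through KP 3, its mean without that library being 0.303 CPM. Agr2, a disulphide isomerase needed for mucin, stood at 30.8, 32.6, 146 and 18.5 CPM. Among motile cilia genes KP 2 was highest for 17 of 18 at 5 CPM or more, against 24.7% of all genes, with sums of 232, 334, 80.9 and 99.7 CPM. Members such as Fam92b (6.49, 11.3, 0.804 and 3.64 CPM) and Ccdc113 (5.04, 11.5, 2.76 and 2.41 CPM) reached a mean of 5 CPM only through KP 2. Dnali1, a dynein light intermediate chain, stood at 11.8, 26.1, 6.66 and 5.98 CPM.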
